A study of Mus musculus with 12 samples.

Results

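The peroxisomal program of the mouse liver was read here through 34 genes, listed by name for their place in the known machinery of the organelle, with earlier results of these data known. They comprised 20 genes of fatty acid oxidation, transport and the peroxisomal oxidases, 3 genes of ether lipid synthesis and 11 Pex genes, which build the organelle. An annotated probe set gave a value for 32 of the 34, among 12393 genes measured in all. Agps, of ether lipid synthesis, and Pex10, of the import machinery, were not analysed here.

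RNA from livers of male mice on a C57BL/6 background, 12 weeks old, was hybridised to Affymetrix mouse genome arrays, 1 liver to an array. The KO_RA group lacked functional hepatocyte RXRα and received a diet with 150 mg of all-trans retinoic acid (RA) per kg for 7 days. The KO group carried the same deletion on the normal diet, the WT_RA group was wild type on the RA diet, and the WT group was wild type on the normal diet. Each group held 3 arrays, described as biological replicates. In the KO mice, Cre driven by the albumin promoter removed exon 4 of Rxra, which encodes part of the DNA-binding domain, from hepatocytes only. These cells can still make a truncated protein that retains the ligand-binding domain, and the other cells of the liver keep RXRα. In a whole-liver array, fewer cells of a type and less RNA per cell cannot be told apart. The values are log2 signals after robust multi-array averaging (RMA), so a difference of 1 unit is a doubling.

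Peroxisomes shorten very-long-chain, branched and polyunsaturated fatty acids that mitochondria handle poorly. An oxidase passes electrons to oxygen and releases hydrogen peroxide, a bifunctional enzyme hydrates and dehydrogenates the acyl-CoA, and a thiolase cleaves it. Auxiliary isomerases and reductases rearrange double bonds that would block the cycle. RXRα is the partner of PPARα, the nuclear receptor through which fibrates and fatty acids raise many of these enzymes in rodent liver, and the pair binds direct repeats of the hexamer AGGTCA. The Pex proteins bring enzymes into the organelle, insert its membrane proteins and divide it.

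The array data were first checked as a whole. Of 14 hepatocyte markers, 12 were measured and all 12 lay above the arrays' median level of 6.26 to 6.35. Arrays of 1 group correlated with a Spearman coefficient of 0.978 to 0.994. Arrays WT_RA 3 and KO 1 stood apart from the rest: their 3′ control probes for Actb read 9.40 and 9.12, against 12.1 to 12.9 on the other arrays, and Ppara read 5.92 and 6.35, against 9.18 to 10.6 elsewhere. Whether the calls were kept without them is given below, with the values without them for some of the genes. Rxra itself differed by 0.61 between KO_RA and WT_RA (adjusted p = 0.0911) and by -0.03 between KO and WT (adjusted p = 0.949). Where its probes lie relative to exon 4 was not determined, so this is no check of the deletion. Cyp26a1, the RA-degrading enzyme that RA induces, was 2.78 higher in KO_RA than in KO and 4.51 higher in WT_RA than in WT.

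Markers of some other cell types differed between the groups. Of 15 Kupffer cell and macrophage markers, 14 were measured, and none of the 14 had a mean below the arrays' lower quartile. Their summed signal, on the log2 scale, spanned 11.8 to 12.1 in KO_RA, 11.6 to 13.8 in KO, 11.9 to 12.8 in WT_RA and 11.1 to 11.4 in WT. Their median change was -0.35 between KO_RA and WT_RA, with 1 called, 1.26 between KO and WT and 0.53 averaged over diets, where 13 of 14 were positive and 0 called. Between WT_RA and WT it was 1.07, with 14 of 14 positive and 2 called, beside 1.27% of all genes. Between KO_RA and KO it was -0.58, with 13 of 14 negative and 0 called. The RA effect in KO mice minus that in wild-type mice had a median of -1.55, with 14 of 14 negative and 0 called. The 11 endothelial markers summed to 11.04 to 11.13 in KO_RA, 11.40 to 11.66 in KO, 11.04 to 11.08 in WT_RA and 11.01 to 11.22 in WT, and their median change between KO and WT was 0.34, with 9 of 11 positive and 1 called. The 3 measured erythroid markers, of 5, summed to 7.05 to 7.94 in KO_RA, 10.75 to 11.05 in KO, 7.27 to 10.32 in WT_RA and 10.62 to 10.78 in WT. Between KO_RA and KO, 1 of the 3, Alas2, was called (-3.68, adjusted p = 0.0405). The 2 not called changed by -0.15 and 0.03 there, so the lower sum in KO_RA rested on Alas2. Between KO_RA and KO the endothelial markers had a median change of -0.32, with 8 of 11 negative and 3 called, beside 0.500% of all genes. The lists for stellate cells, cholangiocytes, neutrophils and T, B and NK cells had no call in any comparison. The stellate cell markers summed to 11.03 to 11.25 in KO_RA, against 11.46 to 11.56 in KO, with 8 of 10 negative between them. The part of all these markers in the results was not tested. The summed hepatocyte markers spanned 16.9 to 17.0 in KO_RA, 16.8 to 16.9 in KO, 16.8 to 17.0 in WT_RA and 16.9 to 17.0 in WT.

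To show the regulatory sequence in front of genes that behaved differently, the 250 bases before the annotated start are printed for 5 of them (RefSeq, GRCm38.p6, each 5′ to 3′ on the gene's own strand). Acaa1b, Ech1 and Slc27a2 were called lower without RXRα, and their windows lay outside the annotated extent of the gene. Decr2, Eci2 and Hsd17b4, also called lower, are not printed. Ehhadh and Cat were not called. Capitals mark the hexamer AGGTCA, the CCAAT box and, as GC box, the letters GGGCGG, each searched on both strands, and no match overlapped another.
Acaa1b, chr9:119157094-119157343, - strand: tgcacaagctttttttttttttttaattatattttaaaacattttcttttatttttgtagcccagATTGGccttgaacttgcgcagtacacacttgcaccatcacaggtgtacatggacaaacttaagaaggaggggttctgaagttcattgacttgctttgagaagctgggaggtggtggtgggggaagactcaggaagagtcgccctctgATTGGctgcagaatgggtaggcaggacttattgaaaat
Ech1, chr7:28825088-28825337, + strand: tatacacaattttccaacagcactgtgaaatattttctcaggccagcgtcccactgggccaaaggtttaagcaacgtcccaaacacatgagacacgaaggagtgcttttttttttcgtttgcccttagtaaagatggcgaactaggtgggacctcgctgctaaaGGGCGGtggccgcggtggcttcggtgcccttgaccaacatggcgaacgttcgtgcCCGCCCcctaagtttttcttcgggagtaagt
Slc27a2, chr2:126552774-126553023, + strand: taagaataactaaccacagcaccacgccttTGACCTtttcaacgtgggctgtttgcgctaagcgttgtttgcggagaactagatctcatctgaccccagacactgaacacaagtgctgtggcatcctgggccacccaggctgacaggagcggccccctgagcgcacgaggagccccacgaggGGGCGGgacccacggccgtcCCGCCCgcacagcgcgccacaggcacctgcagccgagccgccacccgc
Ehhadh, chr16:21787835-21788084, - strand: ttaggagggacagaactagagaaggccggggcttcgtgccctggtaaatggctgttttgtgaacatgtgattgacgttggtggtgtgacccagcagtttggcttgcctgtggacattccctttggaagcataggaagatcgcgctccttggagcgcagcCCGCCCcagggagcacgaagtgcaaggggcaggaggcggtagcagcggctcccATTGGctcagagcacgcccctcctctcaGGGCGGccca
Cat, chr2:103485154-103485403, - strand: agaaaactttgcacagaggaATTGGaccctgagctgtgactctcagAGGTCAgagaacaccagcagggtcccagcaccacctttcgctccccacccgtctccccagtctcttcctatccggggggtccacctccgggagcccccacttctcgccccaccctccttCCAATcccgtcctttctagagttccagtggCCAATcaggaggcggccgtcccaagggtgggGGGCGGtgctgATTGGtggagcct
The hexamer AGGTCA occurred once in the Slc27a2 window, where its reverse complement began at position -220 counted from the start site, and once in the Cat window at -204. The Acaa1b window held 2 CCAAT boxes and no GC box, and the Ech1 window held 2 GC boxes and no CCAAT box. Of the 34 genes, 30 had a promoter entry. A gene counted once if any of its entries held the letters, whereas the share of all promoters counts each entry. The gene counts and these shares are therefore not directly comparable. AGGTCA was found in 3 of the 30 genes (Cat, Scp2 and Slc27a2), against 14% of all 32851 promoters. The CCAAT box was found in 14 of the 30, against 33.8% of all promoters, and the GC box in 21 of the 30, against 32.7%. A direct repeat of the hexamer with 1 base between the copies was in 0 of the 30 genes and in 0.0335% of all promoters. A match is a description of letters and shows no binding.

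The loss of RXRα was asked about on each diet and as the average over both diets. Averaged over diets, 6 of the 32 genes were called lower in the 2 KO groups than in the 2 WT groups and none was called higher. The 6 were Acaa1b, Decr2, Slc27a2, Eci2, Ech1 and Hsd17b4. All 6 belonged to the 20 oxidation and transport genes, and none of the 10 measured Pex genes was called. A gene was called at a Benjamini-Hochberg adjusted p below 0.05 over all genes of the contrast in limma, and by that rule 3.92% of all genes were lower in the same comparison and 5.34% were called in either direction. Under RA, 5 of the 32 were called lower in KO_RA than in WT_RA, beside 3.03% of all genes. On the normal diet, 3 of the 32 were called lower in KO than in WT, beside 0.831% of all genes. Leaving out WT_RA 3 and KO 1 together kept the same 6, 5 and 3 genes. When limma weighted each array by its estimated quality, 13, 6 and 8 of the 32 were called in either direction, with Ehhadh and Hao1 among the 13 on the higher side, but the same fits called 19.1%, 8.59% and 14% of all genes. Every KO array lay below every WT array for 5 of the 32 genes over both diets, beside 2.13% of all genes, for 11 of the 32 under RA, beside 14.3%, and for 11 of the 32 on the normal diet, beside 10.2%.

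**Figure D1:**
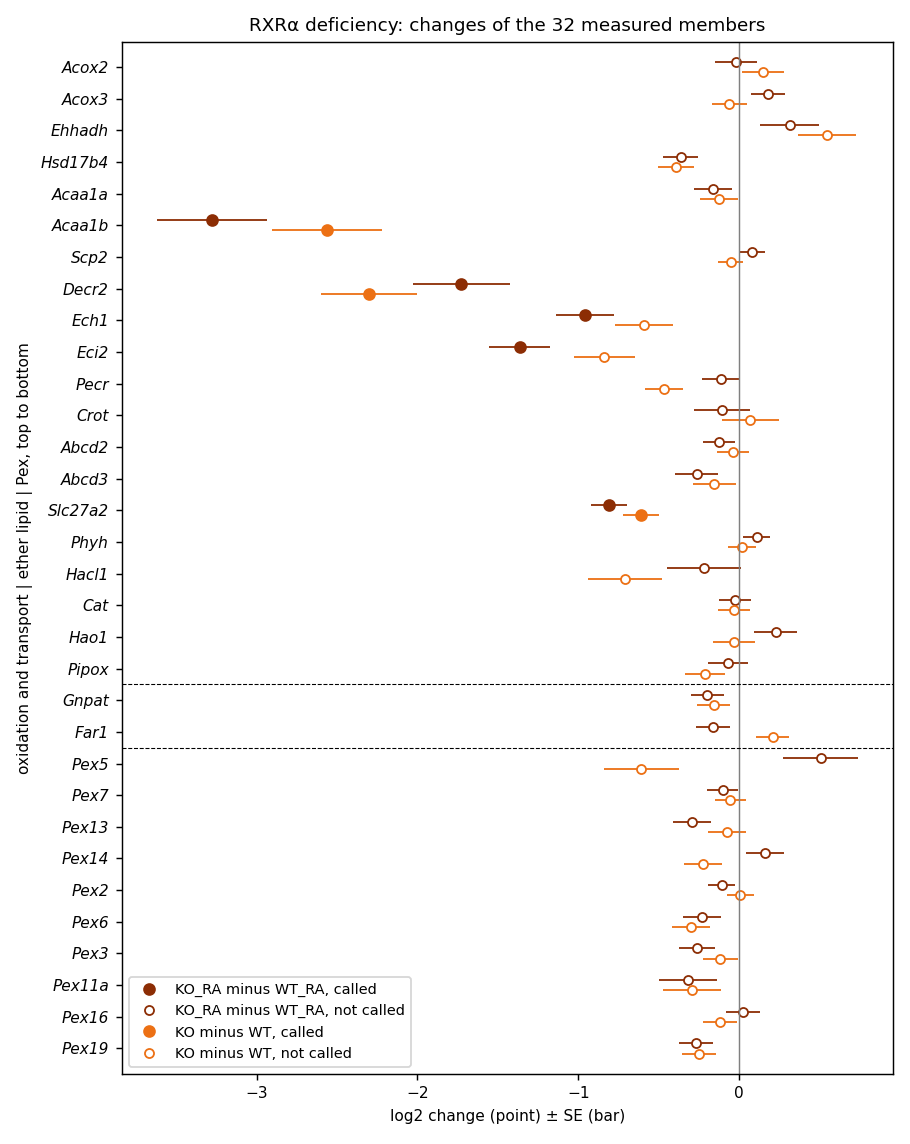
Log2 changes of the 32 genes without hepatocyte RXRα (x axis; points with SE bars), KO_RA minus WT_RA and KO minus WT, with filled points for calls. The lowest points are those of Acaa1b, at -3.28 under RA and -2.56 on the normal diet, and no Pex gene has a filled point.

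Acaa1b encodes a peroxisomal thiolase, the enzyme of the last step of the cycle, and showed the lowest change among the 32 genes in both comparisons. Its signal (gene at chr9:119148043-119157093, GRCm38.p6) was 7.93, 7.56 and 8.42 in KO_RA and 9.85, 8.54 and 9.45 in KO, against 11.91, 10.91 and 10.92 in WT_RA and 11.60, 12.04 and 11.89 in WT. Every KO array of either diet lay below every WT array of either diet, and on this probe set the KO_RA arrays lay below the KO arrays. The change was -3.28 ± 0.34 (SE) under RA, 9.71-fold lower in KO_RA than in WT_RA (adjusted p = 0.00045). On the normal diet it was -2.56 ± 0.34, 5.91-fold lower in KO than in WT (adjusted p = 0.00337). Without WT_RA 3 and KO 1 these changes were -3.44 and -2.85 (adjusted p = 0.000759 and 0.00316).

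Acaa1b and its neighbour Acaa1a are near-identical copies, and 5 probe sets of the array name either or both. The 2 shared probe sets stood at -1.29 and -1.11 under RA and at -1.74 and -1.51 on the normal diet, all called (adjusted p from 0.00382 to 0.0147 over all probe sets). The probe set used for Acaa1a gave -0.16 under RA and -0.13 on the normal diet (adjusted p = 0.529 and 0.63). A dimmer probe set of Acaa1a gave -0.86 under RA (adjusted p = 0.0334) and -0.66 on the normal diet (adjusted p = 0.148). The probe sets of Acaa1a thus disagreed on whether the gene moved, and its change is uncertain. The change was most negative where the probe set names Acaa1b alone.

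**Figure D2:**
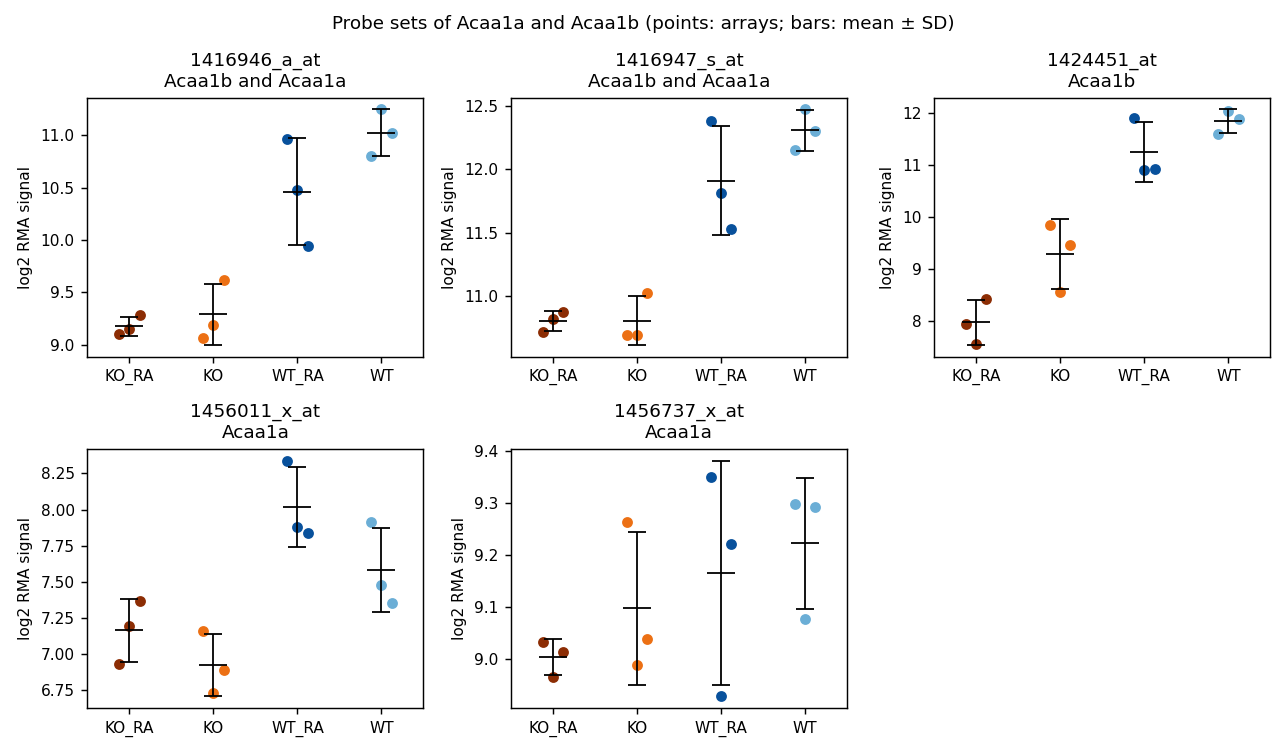
Log2 RMA signal (y axes, each with its own range) of the 5 probe sets that name Acaa1b, Acaa1a or both, per array in the 4 groups, with mean and SD as bars. The Acaa1b probe set averages 7.97 in KO_RA, 9.28 in KO, 11.24 in WT_RA and 11.84 in WT, while the brighter probe set of Acaa1a alone lies between 8.93 and 9.35 on all 12 arrays.

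The auxiliary enzymes for unsaturated acyl-CoA contributed 3 of the 6 calls, out of 4 genes. Decr2, the peroxisomal 2,4-dienoyl-CoA reductase, read 8.42, 8.05 and 8.58 in KO_RA and 7.41, 7.12 and 7.95 in KO, against 10.33, 10.51 and 9.39 in WT_RA and 9.34, 10.05 and 10.00 in WT. The KO and WT arrays did not overlap on either diet, and here the KO arrays were the lowest of all. Decr2 was 3.31-fold lower in KO_RA than in WT_RA (log2 change -1.73 ± 0.30, adjusted p = 0.00942) and 4.93-fold lower in KO than in WT (-2.30 ± 0.30, adjusted p = 0.00336). Its probe set is 1 of 1 for the gene, which lies at chr17:26081208-26090322.

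Eci2 encodes an isomerase that shifts the double bond of enoyl-CoA into the position the cycle uses. It read 9.06, 9.52 and 9.17 in KO_RA and 9.54, 9.19 and 9.52 in KO, against 10.77, 10.58 and 10.48 in WT_RA and 10.66, 10.25 and 9.85 in WT. All 6 KO arrays lay below all 6 WT arrays. The change was -1.36 ± 0.19 under RA (2.57-fold lower in KO_RA, adjusted p = 0.0026) and -0.84 ± 0.19 on the normal diet, where it missed the threshold (adjusted p = 0.0556). WT 3 had the lowest WT value, and without that array Eci2 was called on the normal diet too.

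Ech1, a dienoyl-CoA isomerase found in both peroxisomes and mitochondria, read 10.12, 9.82 and 10.28 in KO_RA and 10.25, 10.36 and 10.80 in KO, against 11.28, 11.05 and 10.76 in WT_RA and 11.28, 10.88 and 11.01 in WT. The genotypes did not overlap within a diet, though KO 3 lay above WT_RA 3. Ech1 was 1.94-fold lower in KO_RA than in WT_RA (-0.96 ± 0.18, adjusted p = 0.0131), and -0.59 ± 0.18 separated KO from WT (adjusted p = 0.144). The call under RA was lost without WT_RA 1 (adjusted p = 0.051).

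Pecr, the trans-2-enoyl-CoA reductase of the same group, was not called. It read 11.09, 11.17 and 11.19 in KO_RA and 11.18, 10.89 and 11.22 in KO, against 11.29, 11.19 and 11.31 in WT_RA and 11.33, 11.76 and 11.60 in WT. Its change was -0.11 under RA (adjusted p = 0.674) and -0.47 on the normal diet (adjusted p = 0.0832), with WT above the other 3 groups.

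**Figure D3:**
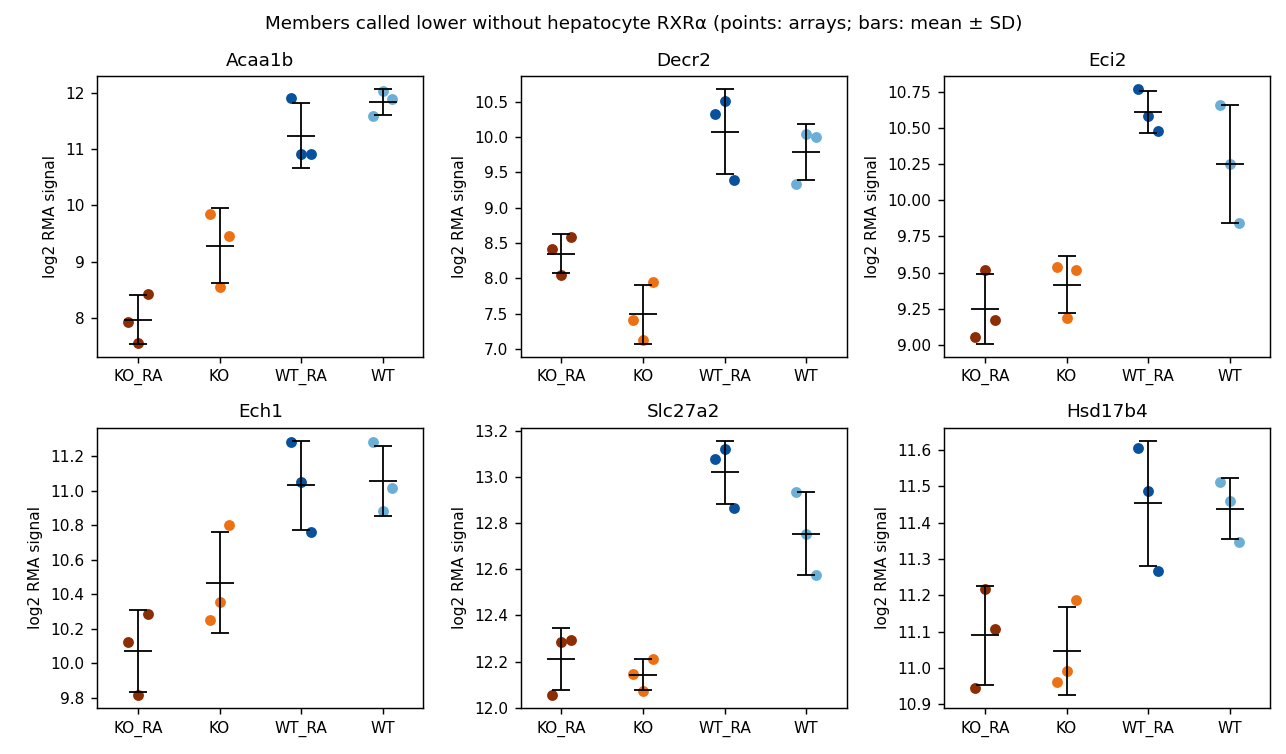
Log2 RMA signal (y axes, each with its own range) of the 6 genes called lower without hepatocyte RXRα as the average over diets, per array in the 4 groups, with mean and SD as bars. KO_RA and KO points lie below WT_RA and WT points within each diet in all 6 panels, with changes under RA from -3.28 for Acaa1b to -0.36 for Hsd17b4.

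Among the genes of acyl transport and activation, Slc27a2 was called and the other 3 were not. Slc27a2 encodes a fatty acid transport protein with very-long-chain acyl-CoA synthetase activity. It read 12.05, 12.28 and 12.29 in KO_RA and 12.15, 12.07 and 12.21 in KO, against 13.08, 13.12 and 12.86 in WT_RA and 12.94, 12.75 and 12.58 in WT. All 6 KO arrays lay between 12.05 and 12.29, below every WT array. The change was -0.81 ± 0.11 under RA (1.75-fold lower in KO_RA, adjusted p = 0.00259) and -0.61 ± 0.11 on the normal diet (1.53-fold lower in KO, adjusted p = 0.0267). The call on the normal diet was lost on leaving out WT 1, WT 2, KO 2 or KO 3 in turn (highest adjusted p = 0.0881), whereas the call under RA was kept in all 12 such fits.

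Abcd3, a transporter of acyl-CoA into peroxisomes, averaged 11.19 ± 0.18 in KO_RA and 11.38 ± 0.11 in KO, against 11.45 ± 0.19 in WT_RA and 11.53 ± 0.20 in WT (SD, n = 3 each). Crot, which hands shortened chains to carnitine for export, averaged 11.21 ± 0.39 in KO_RA and 11.52 ± 0.11 in KO, against 11.31 ± 0.27 in WT_RA and 11.45 ± 0.02 in WT. Neither was called in any comparison. Abcd2, the related transporter, lay below the lower quartile of all 12 arrays, so that a change in it could hardly have been seen.

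The enzymes of the β-oxidation cycle itself were divided. Hsd17b4 and Ehhadh encode the 2 bifunctional proteins, which act on opposite stereoisomers of the hydroxyacyl intermediate. Hsd17b4 read 10.95, 11.22 and 11.11 in KO_RA and 10.96, 10.99 and 11.19 in KO, against 11.61, 11.49 and 11.27 in WT_RA and 11.51, 11.46 and 11.35 in WT. All KO arrays lay below all WT arrays, but the gap was small. The change was -0.36 ± 0.11 under RA and -0.39 ± 0.11 on the normal diet (adjusted p = 0.0956 and 0.119), and as the average over diets it was -0.38 ± 0.08, 1.30-fold lower in the KO groups (adjusted p = 0.016). A dimmer probe set of Hsd17b4 gave -0.68 under RA (adjusted p = 0.0149) and -0.28 on the normal diet (adjusted p = 0.323).

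Ehhadh had the opposite sign. It read 10.67, 10.58 and 11.06 in KO_RA and 10.98, 10.89 and 11.12 in KO, against 10.88, 10.34 and 10.16 in WT_RA and 10.38, 10.67 and 10.31 in WT. The 3 KO arrays lay above the 3 WT arrays, as groups did not overlap, in either direction, for 20.1% of all genes, while WT_RA 1 lay among the KO_RA arrays. The difference was 0.31 ± 0.18 under RA (adjusted p = 0.401) and 0.54 ± 0.18 on the normal diet (adjusted p = 0.172), and averaged over diets it was 0.43 ± 0.13 (adjusted p = 0.0754), with a 95% confidence interval of 0.15 to 0.71 before adjustment. Ehhadh is a standard PPARα target in rodent liver. It was not called here, but as the average over diets it was called higher with further quantile normalization, with array weights and without WT_RA 1. Without WT_RA 3 and KO 1 the difference under RA was 0.16 (adjusted p = 0.717).

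The 3 remaining enzymes of the cycle, besides Acaa1a, were not called. Acox2, the oxidase for bile acid intermediates and branched chains, differed by -0.02 under RA and by 0.15 on the normal diet (adjusted p = 0.956 and 0.576). Acox3, a second branched-chain oxidase, averaged 5.76 ± 0.03 in KO_RA and 5.79 ± 0.03 in KO, against 5.58 ± 0.10 in WT_RA and 5.86 ± 0.23 in WT. Scp2, whose long product is a thiolase for branched chains, differed by 0.08 under RA and by -0.05 on the normal diet (adjusted p = 0.658 and 0.762).

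In α-oxidation, which removes a single carbon from branched chains such as phytanic acid, neither gene was called. Hacl1, the lyase of this pathway, read 11.01, 11.30 and 10.74 in KO_RA and 9.89, 10.24 and 10.82 in KO, against 10.95, 11.63 and 11.12 in WT_RA and 11.04, 11.11 and 10.93 in WT. The KO arrays were spread over nearly 1 unit, with the lowest value on KO 1. The change on the normal diet was -0.71 (adjusted p = 0.162), and without WT_RA 3 and KO 1 it was -0.50 (adjusted p = 0.387). Phyh, the hydroxylase that precedes it, averaged 13.11 ± 0.08 in KO_RA and 13.22 ± 0.08 in KO, against 13.00 ± 0.03 in WT_RA and 13.21 ± 0.12 in WT.

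Catalase (Cat), which removes the hydrogen peroxide that the oxidases release, did not pass the test in any comparison. It averaged 12.25 ± 0.09 in KO_RA and 12.41 ± 0.07 in KO, against 12.28 ± 0.02 in WT_RA and 12.44 ± 0.19 in WT (SD, n = 3 each). Pipox, the pipecolic acid oxidase, averaged 10.18 ± 0.17 in KO_RA and 10.15 ± 0.09 in KO, against 10.25 ± 0.23 in WT_RA and 10.36 ± 0.09 in WT. In ether lipid synthesis, Gnpat, the acyltransferase that begins the pathway, averaged 7.48 ± 0.12 in KO_RA and 7.54 ± 0.20 in KO, against 7.67 ± 0.02 in WT_RA and 7.69 ± 0.04 in WT. Far1, which supplies the fatty alcohol, lay below the lower quartile of all 12 arrays.

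No Pex gene was called on either diet or as the average of both, except in fits with array weights (Pex3, Pex11a and Pex19 as the average and Pex19 on the normal diet) and in the fit without WT 1 (Pex19 as the average). All 10 were lower in the KO groups when averaged over diets, by small amounts, with changes from -0.31 to -0.03, and 5 of the 10 had an unadjusted p below 0.05, beside 22.1% of all genes. Over all genes, 5603 of 12393 were lower. Without WT_RA 3 and KO 1, 8 of the 10 were lower, and Pex5 and Pex14 stood at 0.0099 and 0.012. Pex19, a carrier and receptor for membrane proteins, had the smallest adjusted p. It read 8.57, 8.63 and 8.59 in KO_RA and 8.58, 8.58 and 8.68 in KO, against 9.04, 8.83 and 8.74 in WT_RA and 8.66, 9.002 and 8.94 in WT. WT 1 lay within the range of the KO arrays, and the average change was -0.26 (adjusted p = 0.0669).

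Pex6, an ATPase that recycles the import receptor, read 8.67, 8.90 and 8.96 in KO_RA and 8.86, 8.996 and 9.08 in KO, against 9.27, 9.05 and 8.90 in WT_RA and 9.42, 9.18 and 9.23 in WT. Its average change was also -0.26 (adjusted p = 0.0923), and of the 4 other probe sets of Pex6, 2 were negative (-0.24 and -0.32) and 2 positive (0.13 and 0.08), none called. Pex11a, which promotes division of the organelle and is a known PPARα target in rodents, averaged 8.69 ± 0.18 in KO_RA and 8.51 ± 0.18 in KO, against 9.01 ± 0.33 in WT_RA and 8.81 ± 0.29 in WT (average change -0.31, adjusted p = 0.187). Another Pex11a probe set of similar level (mean 8.62, against 8.76) had opposite signs on the diets. It gave -1.06 between KO and WT, 0.47 between KO_RA and WT_RA and -0.29 as the average. Between KO_RA and KO it gave 1.15, and none of these changes was called. Pex7, Pex13, Pex14, Pex2, Pex3 and Pex16, which serve as receptor, docking proteins, ubiquitin ligase and membrane insertion factors, had adjusted p of 0.187 or more in all comparisons.

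The oxidation genes and the Pex genes differed in their extremes and hardly in their middle. Averaged over diets, the median change was -0.14 for the 20 oxidation and transport genes and -0.13 for the 10 Pex genes, against 0.02 over all genes. The range was -2.92 to 0.43 for the oxidation and transport genes and -0.31 to -0.03 for the Pex genes. Under RA the medians were -0.12 and -0.17, and on the normal diet -0.14 and -0.17, in the same order. The calls lay in 6 of 20 oxidation genes, and the remaining 14 had changes in both directions.

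Genes outside the 34 give the setting. Of 49 other peroxisomal enzymes, 38 were measured. Averaged over diets, 8 were called lower and 1 higher in the KO groups, beside 3.92% of all genes called lower and 5.34% in either direction. By sign alone, 28 of the 38 were negative and 10 positive. The calls included Amacr, a racemase of branched acyl-CoA (-0.42, adjusted p = 0.00215), and Acot12, an acyl-CoA thioesterase (-0.49, adjusted p = 0.00927). Mpv17l was the 1 called higher (0.36, adjusted p = 0.015). Of 10 other Pex and division genes, 6 were measured. The 1 called was Dnm1l, the dynamin-like fission protein shared with mitochondria, and it was lower (-0.27, adjusted p = 0.0476). Of 16 genes of mitochondrial β-oxidation, 7 were called lower, beside 3.92% of all genes. All 16 had a negative change, with a median of -0.32. Slc25a20, the carnitine carrier, was at -0.77 (adjusted p = 0.000483), and Acadvl, the very-long-chain acyl-CoA dehydrogenase, at -0.58 (adjusted p = 0.000483).

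The effect of dietary RA was asked about in each genotype. In KO mice none of the 32 genes was called between KO_RA and KO in limma, beside 0.500% of all genes, and 7 had an unadjusted p below 0.05, beside 14.0% of all genes. In wild-type mice 1 of the 32 was called, beside 1.27% of all genes, which was Hao1, lower in WT_RA. With array weights it was 8 of the 32, beside 8.63% of all genes in that fit. The median change of the oxidation and transport genes was -0.10 in KO mice and -0.07 in wild-type mice, against -0.03 and -0.01 over all genes.

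**Figure D4:**
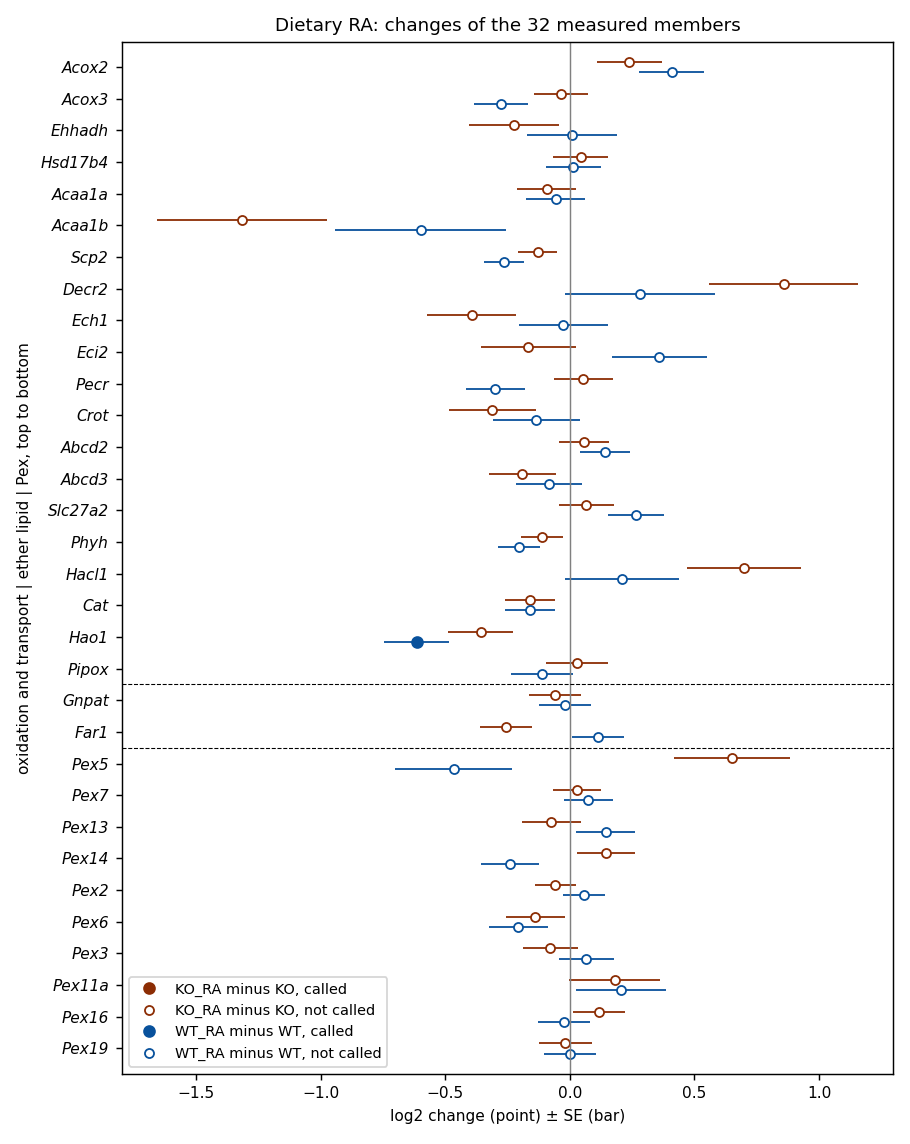
Log2 changes of the 32 genes under dietary RA (x axis; points with SE bars), KO_RA minus KO and WT_RA minus WT, with filled points for calls. Hao1 in wild type, at -0.62, is the only filled point, and Pex5 has opposite signs in the 2 genotypes (0.65 and -0.47).

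Hao1 encodes glycolate oxidase, a peroxisomal enzyme that makes glyoxylate and hydrogen peroxide. It read 10.91, 10.76 and 10.76 in KO_RA, against 10.99, 11.22 and 11.29 in KO. In wild-type mice it read 10.57, 10.39 and 10.78 in WT_RA, against 11.44, 11.07 and 11.08 in WT. RA arrays lay below normal-diet arrays in both genotypes, as they did, higher or lower, for 20.9% of all genes in KO mice and 16.6% in wild-type mice. The change was -0.36 ± 0.13 in KO mice (adjusted p = 0.253) and -0.62 ± 0.13 in wild-type mice, 1.53-fold lower in WT_RA (adjusted p = 0.0452). The wild-type call was at the threshold and was lost in 11 of the 12 fits that left out 1 array, kept only without KO 1, with adjusted p up to 0.17. Without both WT_RA 3 and KO 1 it was kept (-0.72, adjusted p = 0.0352). The RA effects did not pass the test of their difference (0.26, adjusted p = 0.644). Agxt, which detoxifies the glyoxylate that Hao1 makes, was the 1 call among the 38 other peroxisomal enzymes in wild-type mice (-0.65, adjusted p = 0.0213).

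Under RA, Acaa1b and Decr2 took opposite signs in KO mice, without a call. The Acaa1b arrays of KO_RA lay below those of KO (change -1.32 ± 0.34, 95% confidence interval -2.06 to -0.57 before adjustment, adjusted p = 0.111). The probe sets shared with Acaa1a gave -0.11 and -0.00037 in KO mice (limma adjusted p of 0.857 or more over all probe sets). In wild-type mice they gave -0.56 and -0.40. In KO mice the lower Acaa1b signal under RA thus rested on the probe set that names Acaa1b alone. The Decr2 arrays of KO_RA lay above those of KO (0.86 ± 0.30, interval 0.20 to 1.51, adjusted p = 0.236). KO_RA and KO arrays did not overlap, higher or lower, for 20.9% of all genes. Hacl1 changed by 0.70 ± 0.23 in KO mice, with overlapping arrays (adjusted p = 0.214), and by 0.49 without WT_RA 3 and KO 1 (adjusted p = 0.444). In wild-type mice the changes were -0.60 for Acaa1b and 0.28 for Decr2 (adjusted p = 0.577 and 0.827). Without WT_RA 3 and KO 1 the changes of Acaa1b and Decr2 were -1.03 and 0.81 in KO mice (limma adjusted p = 0.226 and 0.223). In wild-type mice they were then -0.43 and 0.62 (for Decr2 there, unadjusted p = 0.0415 and adjusted p = 0.442 in limma).

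Scp2 and Acox2 had smaller RA differences in wild-type mice, and these missed the threshold as well. Scp2 read 13.12, 13.07 and 13.06 in WT_RA, against 13.39, 13.36 and 13.30 in WT, and 13.14, 13.11 and 13.25 in KO_RA, against 13.19, 13.32 and 13.38 in KO. The wild-type groups did not overlap (change -0.26, adjusted p = 0.164), as for 16.6% of all genes. The 3 dimmer probe sets of Scp2 gave changes of -0.15, 0.01 and -0.01. Acox2 differed by 0.41 in the other direction (adjusted p = 0.186).

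For the 6 genes called lower without RXRα, the response to RA did not pass the test of a difference between genotypes. The difference of RA effects, KO minus wild type, lay between -0.72 for Acaa1b and 0.58 for Decr2 among the 6, and none of the 32 genes was called, beside 0.00807% of all genes (1 gene). Without WT_RA 3 and KO 1 the 6 lay between -0.61 for Ech1 and 0.19 for Decr2, again with no call. For Acaa1b the sign depended on the probe set. Those shared with Acaa1a gave 0.45 and 0.40 (limma adjusted p = 0.617 and 0.575 over all probe sets), against -0.72 on the probe set of Acaa1b alone. At an unadjusted p below 0.05 there were 3 of the 32, beside 11.7% of all genes. With 3 arrays a group the interval of that difference for Acaa1b ran from -1.77 to 0.34, so a sizeable difference could have been missed.

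Pex5, the receptor that brings most matrix enzymes to the peroxisome, had the smallest unadjusted p of the 3. It read 8.39, 8.54 and 8.61 in KO_RA and 7.24, 8.06 and 8.29 in KO, against 8.15, 8.24 and 7.62 in WT_RA and 8.61, 8.45 and 8.35 in WT. RA arrays were above normal-diet arrays in KO mice (0.65) and below them in wild-type mice (-0.47), and the difference was 1.12 ± 0.33 (adjusted p = 0.251). The lowest value of each of these groups was on KO 1 and WT_RA 3, and without these arrays the RA changes were 0.34 and -0.27 and their difference 0.61 (adjusted p = 0.236).

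**Figure D5:**
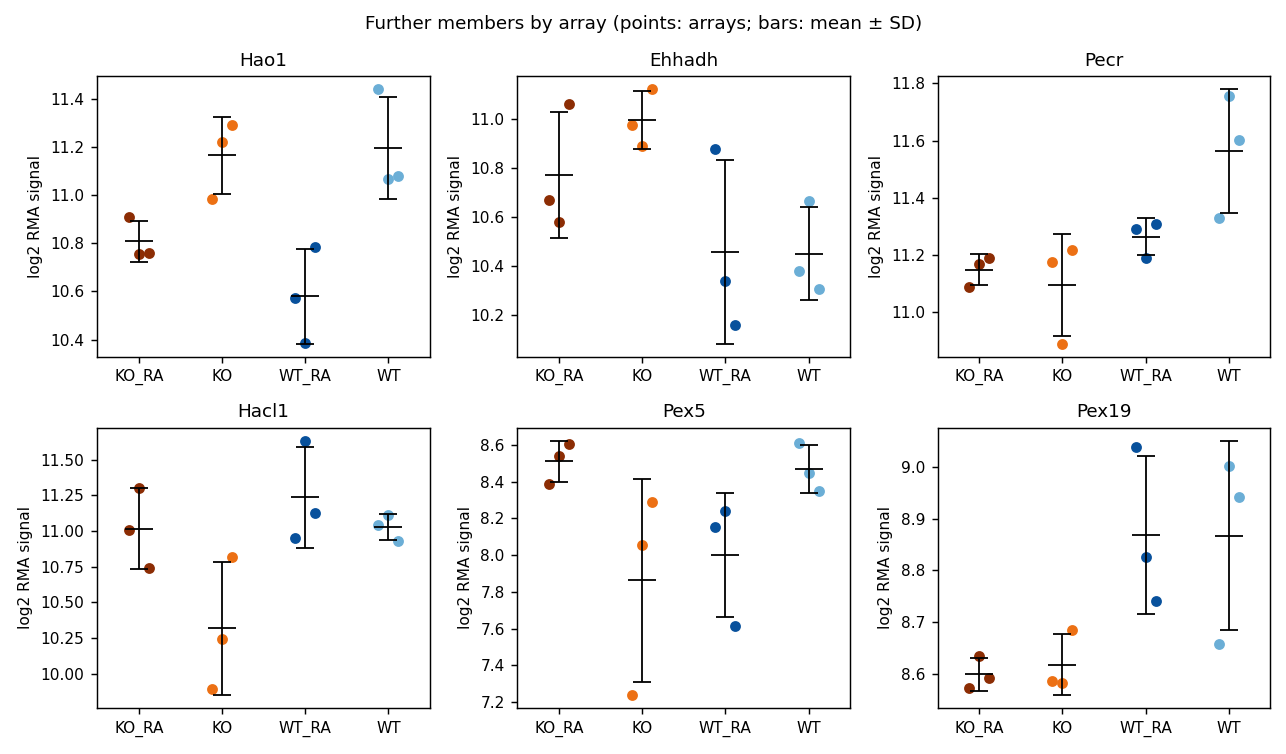
Log2 RMA signal (y axes, each with its own range) of Hao1, Ehhadh, Pecr, Hacl1, Pex5 and Pex19 per array in the 4 groups, with mean and SD as bars. Hao1 is lower on the RA diet in both genotypes, and the lowest Pex5 points are KO 1 (7.24) and WT_RA 3 (7.62).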

How the data were processed

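Affymetrix arrays of 12 mouse livers in 4 groups of 3 were used. The deposited values are log2 signals per probe set; per the labels' processing notes the authors used RMA and Partek 6.11, while the methods of the paper name MAS5 with a detection filter for the authors' own analysis. RMA shares information across arrays and compresses low signals, so small changes of dim genes are understated. Depth does not apply to arrays, and the number of arrays limits precision.

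Of 22690 probe sets, 20380 named a single gene in the platform annotation and 691 named several. Each of 12393 genes was represented by its probe set of highest mean. limma 3.58.1 in R 4.3.3 was fitted to all 12 arrays with 1 coefficient per group and no covariate (8 residual degrees of freedom), and p-values were two-sided and adjusted by Benjamini-Hochberg over all genes of each of 6 contrasts. Probe sets not representing a gene were tested in the same fit over all probe sets. The script was tested on simulated data. Values per array are given for every gene called and for 6 further genes of smallest adjusted p; Pex5 was added after its values were seen. The 34 genes and the other lists were chosen with earlier results of these data known. Alternatives were the replicate number as a block, other handling of probe sets, filters, normalization, variance models, array weights, fits to 2 groups and leaving out arrays. Replicates are called biological, and each p-value sets a difference between groups against the spread between these arrays. Promoter sequences and gene positions are from RefSeq (GRCm38.p6). Figures were drawn with matplotlib 3.10.9.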

Additional observations from a re-analysis of the deposited data

Results flagged for a closer look

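Pex5 drew attention because its signs under dietary RA were opposite in the 2 genotypes: RA arrays lay above normal-diet arrays in all KO mice and below them in all wild-type mice, where the groups did not overlap in either direction for 20.9% of all genes in KO mice and 16.6% in wild-type mice. The RA effect in KO minus that in wild type was 1.12 ± 0.33 on the log2 scale (unadjusted p = 0.00549, adjusted p = 0.251 in limma), which fails the correction over all genes. Without WT_RA 3 and KO 1, whose Actb control probes were low, it was 0.61 (adjusted p = 0.236). The second Pex5 probe set gave 0.78 (adjusted p = 0.402). The part of these arrays in the result was not tested further.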

How the results depend on the processing

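For the 15 calls, 303 of 324 alternative values kept their direction and side of the threshold, 21 kept the direction and missed it, and 0 changed sign. Conversely, 23 pairs of a gene and a comparison not called in the report were called under some alternative: Pecr and Pex19 without WT 1 and Hacl1 without KO 3, averaged over diets, are examples. Array weights called 8 of the 32 genes for RA in wild type (against 1), 8 for RXRα loss on the normal diet (against 3) and 13 averaged over diets (against 6). Hao1 was lost, leaving 0 genes, with the replicate block, with all probe sets and with only the 2 groups compared. Adding the replicate block, which also ended the Slc27a2 call on the normal diet (adjusted p up to 0.082 with it or the fit of 2 groups), changed no other call. The replicate numbers share only a number: 5 of 18 same-number pairs correlated above 0.1 (-0.458 to 0.266, against -0.323 to 0.347 for other pairs), and 1 of 12 arrays correlated best with its own number. The median change of oxidation minus Pex genes was -0.025 (against -0.099) for RA in wild type and -0.15 (against 0.0043) for the difference of RA effects when probe sets were averaged. With the shared probe set standing for Acaa1a and Acaa1b, an alternative chosen after seeing the data, it was -0.024 for RA in KO mice (against -0.11) and 0.082 for the difference of RA effects. Acaa1a then joined the calls on the normal diet, under RA and averaged over diets. Both genes carried the values of that called probe set there, so these calls say nothing of Acaa1a alone. With probe sets averaged, Acaa1a was called averaged over diets. Leaving out 1 array at a time gave 0 to 1 called genes of the 32 for RA in wild type, 2 to 4 for RXRα loss on the normal diet, 4 to 5 under RA, 6 to 8 averaged over diets, and 0 to 0 for RA in KO mice and for the difference of RA effects. The median difference of oxidation and Pex genes then spanned -0.14 to -0.0038 for RA in wild type, -0.14 to -0.043 for RA in KO mice, -0.022 to 0.071 for RXRα loss under RA, -0.013 to 0.094 for it on the normal diet, -0.077 to 0.072 for the difference of RA effects and -0.031 to 0.023 averaged over diets. Over all genes, calls ranged over the same fits from 47 to 212 (158 reported), 51 to 217 (163), 6 to 77 (62), 170 to 599 (490), 1 to 14 (1) and 403 to 767 (662), listed as RA in wild type, RXRα loss without RA, RA in KO mice, RXRα loss with RA, difference of RA effects and average over diets. Under the other settings they ranged from 95 to 1070, 70 to 1734, 21 to 303, 312 to 1064, 0 to 247 and 537 to 2370. Among these settings, the fit over all probe sets counts probe sets in place of genes. The filtered fit tests only genes above the median level, so the totals tested differ. The fit of 2 groups could not be made for the last 2 contrasts, which need all 4 groups. Abcd2 and Far1 were too dim for a change to be seen.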
